A study of Mus musculus with 4 samples.

Results

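The 10 genes described here encode receptors of myeloid cells and small adaptors through which some such receptors signal. The receptors are the Fc gamma receptors (Fcgr1, Fcgr2b, Fcgr3 and Fcgr4) and the TREM receptors Trem1, Trem3 and Treml2. The adaptors are Fcer1g, Tyrobp and Hcst. The 10 genes were taken by gene symbol from a table of 24497 features, in which all 10 were listed. A filter on low values left 11866 features for testing, and 9 of the 10 genes passed it; Fcgr1 did not. RNA was measured in spleen cells of mice transplanted with an acute myeloid leukaemia that the fusion gene MLL-AF9 drives. Of the 4 libraries, 2 came from mice given PBS (phosphate-buffered saline, the vehicle) and 2 from mice given CS1, an inhibitor of the RNA demethylase FTO.

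The labels give no difference between the groups other than CS1. All recipients were secondary transplant hosts irradiated sub-lethally with 320 rads, all carried CD45.2+ MLL-AF9 donor cells, and all spleen samples were enriched for CD45.2 with beads before poly(A) RNA was sequenced. CS1 was injected into the peritoneum at 5 mg/kg on alternate days over 20 days, and PBS replaced it in the controls. The labels name neither the strain nor the age of the mice and leave it unsaid whether replicates were separate animals, so the p-values reflect the spread of these samples alone, and that spread may be technical. CS1 replicate 2 carries the entry CS2 in its treatment field, against CS1 in its title, and was kept in the CS1 group. Hosts irradiated sub-lethally keep blood cells of their own, and the labels give no purity after the beads.

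Fc gamma receptors bind the constant part of IgG and let myeloid cells take up or kill what antibodies have coated. The activating ones have little signalling sequence of their own and sit beside the gamma chain Fcer1g, whose immunoreceptor tyrosine-based activation motif (ITAM) is phosphorylated by Src-family kinases and then binds the kinase Syk. TREM1 and TREM3 use the related adaptor Tyrobp (DAP12) in the same way and amplify inflammatory responses of neutrophils and monocytes. Fcgr2b works against them through an inhibitory motif (ITIM) that recruits the phosphatase SHIP1, and Hcst (DAP10), best known as the partner of the receptor NKG2D, carries a YxNM motif that binds PI3-kinase instead of Syk.

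The coding sequences of these signalling motifs show how the adaptors differ and are printed for that reason. They are read 5′ to 3′ from GENCODE M21 transcripts (GRCm38), with the tyrosine codons in capitals. The ITAM was searched as a tyrosine, any 2 residues, then leucine or isoleucine, repeated after 6 to 8 residues. It occurred once in Fcer1g (residues 65 to 79 of 86) and once in Tyrobp (residues 92 to 106 of 114), and in none of the other 8 genes. The YxNM motif occurred in Hcst only among the 10 (residues 72 to 75 of 79), and the ITIM of Fcgr2b is at residues 317 to 322 of 340. Short matches to the ITIM pattern also occur in Fcgr1, Fcgr4, Fcer1g and Tyrobp, and a match alone does not make a working site.
Fcer1g ITAM: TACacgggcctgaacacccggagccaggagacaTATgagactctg
Tyrobp ITAM: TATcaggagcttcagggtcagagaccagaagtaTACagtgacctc
Hcst YxNM: TACatcaacatg
Fcgr2b ITIM: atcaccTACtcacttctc

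Most of these genes were lower after CS1. Of the 9 tested genes, 7 fell, Hcst rose and Treml2 did not pass the test, with a median log2 fold change of -0.28 against 0.04 over all 11866 tested features. The largest falls among the tested genes were those of Fcgr4, to 0.382 of its PBS level, and Trem1, to 0.563, while the 2 ITAM adaptors kept 0.777 (Fcer1g) and 0.825 (Tyrobp) of theirs. Calls were made with limma on log2(TPM + 1), where TPM is the length-scaled share of each transcript, at a Benjamini-Hochberg adjusted p under 0.05. Over all features tested, 67% were called (35.3% higher and 31.6% lower), so a call by itself sets none of these genes apart. For all 10 genes the 2 CS1 values lay on one side of the 2 PBS values, 8 lower and 2 higher, and 84.4% of all tested features were likewise without overlap. An exact permutation test of one gene with 2 against 2 libraries cannot give a two-sided p under 0.333. Each adjusted p below therefore rests on the spread that limma shares across features.

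**Figure D1:**
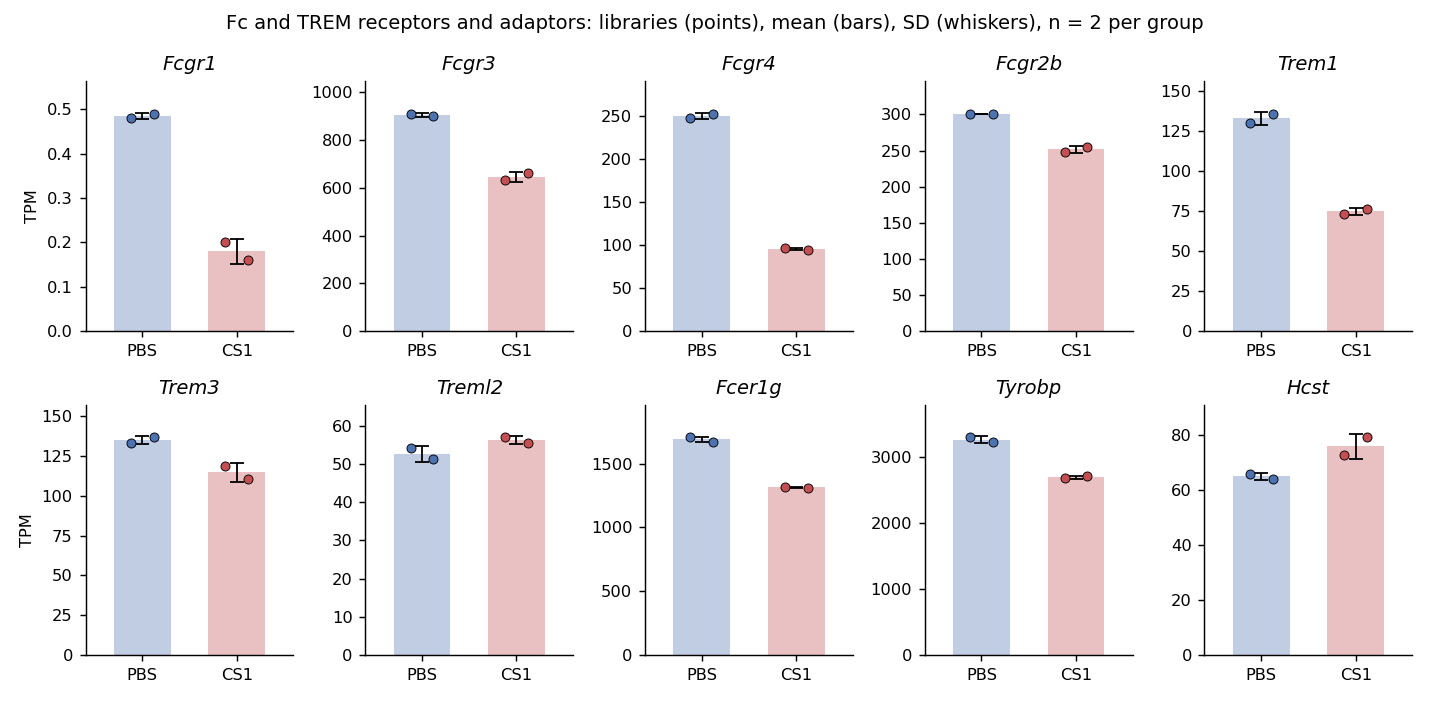
TPM of each gene in every library (points), with the mean (bars) and SD (whiskers) of the 2 libraries per group; each panel has its own vertical axis from 0. Both CS1 points lie below both PBS points for 8 genes and above them for Hcst and Treml2.

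TPM is scaled by transcript length, so levels can be set side by side between genes. Tyrobp was the most abundant of the 10, the 23rd of all features by mean TPM, followed by Fcer1g at rank 101 and Fcgr3 at rank 196. In PBS the order then ran through Fcgr2b, Fcgr4, Trem3, Trem1, Hcst and Treml2 to Fcgr1, and the only neighbours whose libraries overlapped were Trem3 and Trem1. In CS1 the fall of Fcgr4 placed it below Trem3, and the overlapping neighbours were Hcst and Trem1. Together the 10 genes held 0.694% and 0.683% of all TPM in PBS and 0.541% and 0.546% in CS1.

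Fcgr4, an activating receptor that binds IgG2a and IgG2b, had the lowest log2 fold change of the 9 tested genes. It stood at 248 and 253 TPM in the PBS libraries and at 96.7 and 94.5 TPM in the CS1 libraries. Both CS1 libraries were thus far below both controls, and the 2 libraries of each group nearly coincided. Its mean fell from 250.1 ± 3.50 to 95.6 ± 1.51 TPM (SD, n = 2 each), a log2 fold change of -1.38 ± 0.03 (SE, limma adjusted p = 2.44e-06), and only 0.940% of all tested features had a log2 fold change as low or lower.

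Fcgr3, the low-affinity activating receptor found on most myeloid cells and on natural killer (NK) cells, was the most abundant receptor of the group. Its TPM was 910 and 899.9 in PBS and 632 and 662 in CS1. The groups were separated by far more than the gap within either one. The mean fell from 905 ± 7.09 to 647 ± 20.8 TPM (log2 fold change -0.48 ± 0.03, SE, limma adjusted p = 3.93e-05). Fcgr1, the high-affinity IgG receptor typical of monocytes and macrophages, was barely detected, at 0.48 and 0.49 TPM in PBS and 0.20 and 0.16 TPM in CS1. It was lower in both CS1 libraries but stayed under the minimum of 1 TPM in all 4. In the fit without that filter its log2 fold change was -0.33 ± 0.05 (SE, limma adjusted p = 0.0104), a scale on which the change of such a low gene is understated.

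The inhibitory receptor Fcgr2b fell less. Its libraries stood at 301 and 300.3 TPM in PBS and at 249 and 255 TPM in CS1, again without overlap. The mean went from 300.7 ± 0.587 to 252 ± 4.75 TPM (log2 fold change -0.25 ± 0.02, SE, limma adjusted p = 0.000263), and 25.8% of all tested features had a log2 fold change as low or lower. The transcripts of Fcgr2b and Fcgr3 share 166 words of 50 bases, which is 4.48% of those of Fcgr2b and 10.2% of those of Fcgr3, so the split of reads between these 2 genes is uncertain to that extent. No other pair among the 10 shared such a word.

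Because the activating receptors fell further than the inhibitory one, the make-up of the Fc gamma receptor transcripts shifted. The ratio of activating TPM (Fcgr1, Fcgr3 and Fcgr4 summed) to Fcgr2b TPM was 3.85 and 3.84 in PBS and 2.93 and 2.96 in CS1, or 3.84 ± 0.00442 against 2.95 ± 0.0209 (SD, n = 2 each). No test was made of this ratio. The summed TPM of the 4 receptors was 1459 and 1453 in PBS and 978 and 1012 in CS1, a ratio of group means of 0.683. Within that sum Fcgr4 made up 17.2 ± 0.290% in PBS and 9.62 ± 0.384% in CS1, Fcgr2b 20.7 ± 0.0189% and 25.3 ± 0.134%, and Fcgr3 62.1 ± 0.309% and 65.0 ± 0.521%. Fcgr4 therefore gave up share to both of the others. In bulk RNA, fewer cells that carry a transcript and less of it per cell cannot be told apart.

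**Figure D2:**
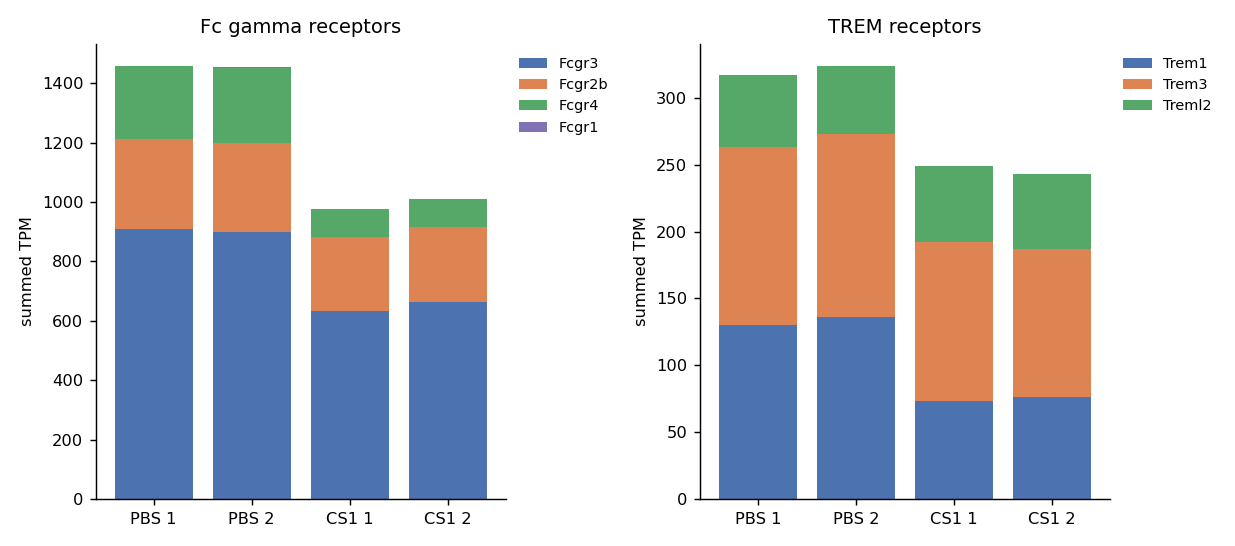
Summed TPM of the Fc gamma receptors (left) and the TREM receptors (right) in each library, stacked by gene. The Fc gamma receptor sum is 1459 and 1453 TPM in PBS and 978 and 1012 TPM in CS1; Fcgr1 is under 1 TPM in every library and too thin to see.

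Trem1, which amplifies inflammatory signalling in neutrophils and monocytes, changed most among the TREM receptors. It was measured at 130 and 136 TPM in PBS and at 73.4 and 76.5 TPM in CS1. The CS1 values were close to each other and well under both controls. The mean fell from 133 ± 4.23 to 74.95 ± 2.21 TPM (log2 fold change -0.82 ± 0.04, SE, limma adjusted p = 1.97e-05), and 4.51% of tested features had a log2 fold change as low or lower.

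Trem3, the next gene along chromosome 17 and a further partner of Tyrobp, fell less. Its TPM was 133 and 137 in PBS and 119 and 111 in CS1, means of 135 ± 2.62 and 115 ± 5.80 TPM. The log2 fold change was -0.23 ± 0.04 (SE, limma adjusted p = 0.00343), and the call was lost under quantile normalization (log2 fold change -0.10, adjusted p = 0.0805). Treml2, which encodes the TREM-like receptor TLT-2, stood at 54.3 and 51.3 TPM in PBS and at 57.0 and 55.6 TPM in CS1. The CS1 libraries were both the higher ones, but the log2 fold change of 0.09 ± 0.04 (SE) did not pass (limma adjusted p = 0.0954). Under quantile normalization it was 0.13 with an adjusted p of 0.0325. The other 11 alternatives left each of these calls as it was.

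These unequal changes altered the proportions of the TREM receptors. Trem1 and Trem3 were at near parity in PBS, with Trem1 to Trem3 ratios of TPM of 0.977 and 0.994, against 0.618 and 0.692 in CS1. Trem1 made up 41.5 ± 0.703% of the summed TREM receptor TPM in PBS and 30.5 ± 1.46% in CS1, and Treml2 16.5 ± 0.894% and 22.9 ± 0.0241% (SD, n = 2 each). The summed TPM itself was 317 and 324 in PBS and 249 and 243 in CS1. Both receptor families thus had a smaller sum in CS1, at 0.683 of the PBS mean for the Fc gamma receptors and 0.767 for the TREM receptors.

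The ITAM adaptors were the most abundant of the 10 genes. Fcer1g, the common gamma chain of the activating Fc receptors, stood at 1707 and 1674 TPM in PBS and at 1318 and 1310.3 TPM in CS1. Its mean went from 1690.3 ± 23.0 to 1314 ± 5.15 TPM (log2 fold change -0.36 ± 0.02, SE, limma adjusted p = 3.49e-05). Tyrobp, the adaptor of TREM1, TREM3 and many other myeloid receptors, was measured at 3292.5 and 3224 TPM in PBS and at 2673 and 2702 TPM in CS1. Neither adaptor overlapped between the groups. The mean of Tyrobp went from 3258 ± 48.5 to 2688 ± 20.8 TPM (log2 fold change -0.28 ± 0.02, SE, limma adjusted p = 0.000101).

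Each ITAM adaptor fell by a smaller factor than the sum of its partner receptors here, though Trem3 alone kept more of its PBS level (0.850) than Tyrobp (0.825). Fcer1g TPM was 1.47 and 1.45 times the summed activating Fc gamma receptor TPM in PBS and 1.81 and 1.73 times in CS1. Tyrobp TPM was 12.5 and 11.8 times the sum of Trem1 and Trem3 in PBS and 13.9 and 14.4 times in CS1. Both adaptors also serve other receptors, so these ratios describe transcripts and not complexes. The ratio of Fcer1g to Tyrobp TPM was 0.518 and 0.519 in PBS and 0.493 and 0.485 in CS1, a small shift in favour of Tyrobp.

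Hcst was the exception among the adaptors and the only gene of the 10 called higher. It stood at 65.9 and 64.1 TPM in PBS and at 72.6 and 79.1 TPM in CS1, and the gap between its CS1 libraries, 0.12 on the log2 scale, was the widest between replicates among the 10 genes. The mean rose from 65.0 ± 1.31 to 75.8 ± 4.57 TPM (log2 fold change 0.22 ± 0.05, SE, limma adjusted p = 0.00870). Hcst to Tyrobp ratios of TPM were 0.02002 and 0.01987 in PBS and 0.02716 and 0.02926 in CS1. Klrk1, the gene of its partner NKG2D, rose from 5.39 ± 0.290 to 8.49 ± 0.0990 TPM (log2 fold change 0.57, limma adjusted p = 0.00204); it was named after its value was seen. The summed TPM of the 8 NK cell markers, of which Klrk1 is one, was 26.8 and 24.5 in PBS and 56.7 and 64.4 in CS1. Most of the higher sum came from Nkg7, a granule protein gene of cytotoxic cells, which rose from 10.4 to 39.6 TPM. Of the 4 markers tested, Nkg7, Klrd1 and Klrk1 were called higher. Gzma was called lower, from 1.615 to 0.68 TPM. It reached 1 TPM in PBS only, so it could be tested only as a fall. Klrb1c, Prf1 and Eomes, untested and under 1 TPM, were lower in both CS1 libraries. Gzma and these untested genes were named after their values were seen. Ncr1, which defines NK cells, was at 0.435 TPM in PBS and listed at the table's lowest value, 0.01, in both CS1 libraries. The part of NK cells in the Hcst result was not tested.

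**Figure D3:**
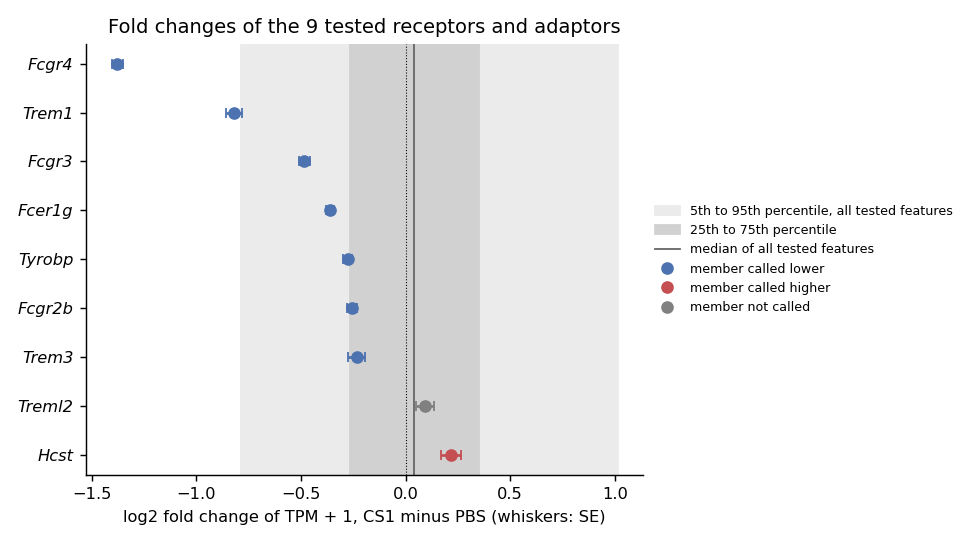
Log2 fold changes (CS1 minus PBS, on log2(TPM + 1)) of the 9 tested genes with their SE (whiskers), over the spread of all 11866 tested features (shaded bands, with the median as a line). Fcgr4 and Trem1 lie below the 5th percentile of -0.78. Hcst, Treml2, Trem3 and Fcgr2b lie between the 25th and the 75th percentile.

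The labelled cell type was checked against markers. The myeloid and leukaemia markers, 13 genes among which Fcgr3 itself counts, were all listed and summed to 20377 and 20496 TPM in PBS and to 14591 and 14681 TPM in CS1, with 4 called higher and 8 lower. That lower sum rested on the most abundant of them, the lysozyme gene Lyz2, which fell by 1.09 on the log2 scale. Without Lyz2 the sum was 7249 and 7241 TPM in PBS and higher in CS1, at 8398 and 8459 TPM. Elane and Mpo, protease and peroxidase genes of early granules, rose from 425 and 161 TPM to 2512 and 813 TPM, while Csf1r and Itgam were among the 8 markers that fell. The gain of Elane alone was larger than that of the sum without Lyz2, so that higher sum rested on Elane. Mature neutrophil markers (9 genes) summed to 1458 and 1477 TPM in PBS and to 5431 and 5455 TPM in CS1, with 5 called higher and 3 lower. Most of that sum came from the granule genes Ngp and Camp, which rose. Retnlg, Mmp9 and Il1r2 also rose (log2 fold changes 1.64, 0.70 and 0.39). Csf3r, Cxcr2 and Ltf fell (log2 fold changes -0.87, -0.43 and -0.65) and Ly6g did not pass. Splenic macrophage markers (12 genes) summed to 180.5 and 179.7 TPM in PBS and 123 and 126 TPM in CS1. Within that list Adgre1, which encodes F4/80, fell from 164 to 97.2 TPM and Cd163, a haemoglobin scavenger receptor, rose from 11.1 to 23.0 TPM, while C1qa, C1qb, C1qc, Cd5l, Timd4 and Spic, which mark resident macrophages, had group means under 1 TPM. These 6 macrophage genes, and the myeloid and neutrophil markers named here beside Lyz2, Ngp and Camp, were named after their values were seen. Mast cell and basophil markers (9 genes) summed to 12.7 and 11.7 TPM in PBS and 57.8 and 54.8 TPM in CS1, mostly from the basophil protease gene Mcpt8. The high-affinity IgE receptor gene Fcer1a, which defines those cells and pairs with Fcer1g, was listed at 0.01 in all 4 libraries. The part of these cell types in the falls of the receptors and adaptors was not tested.

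The upstream and downstream genes of the pathway were read from lists in the same fit. Proximal ITAM signalling, the kinases, adaptors and enzymes that act on a phosphorylated ITAM, was lower in most cases. Of 32 tested genes 25 fell and 3 rose (87.5% called, against 67% of all features), with a median log2 fold change of -0.44 against 0.04. Fgr, a Src-family kinase of myeloid cells, stood at 423 and 415 TPM in PBS and 161 and 161 TPM in CS1 (log2 fold change -1.37, limma adjusted p = 1.88e-06). Fyb, an adaptor that links receptors to the actin skeleton, went from 322 ± 2.11 to 165 ± 1.75 TPM (SD, n = 2 each). A further 4 genes that fell, Syk, Lyn, Lcp2 and Plcg2, were named after their values were seen. Syk, the kinase that binds the ITAM, fell from 299 ± 7.54 to 199.6 ± 0.0424 TPM, and Lyn, which phosphorylates ITAMs, from 563 ± 2.02 to 316 ± 0.955 TPM. Lcp2, the scaffold SLP-76, had a log2 fold change of -1.04, and Plcg2, the phospholipase C of myeloid cells, one of -0.70. Against this direction, Plcg1, the other phospholipase C gamma, rose from 6.39 ± 0.382 to 13.1 ± 0.509 TPM and Lat2, a membrane scaffold, from 169 ± 0.0990 to 191 ± 2.45 TPM. The third gene that rose was Fyn, a Src-family kinase named after its value was seen, from 13.2 ± 0.566 to 19.4 ± 1.68 TPM (log2 fold change 0.52, limma adjusted p = 0.00206).

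Phosphatases and adaptors that limit ITAM signalling were lower more often than higher. Of 17 tested genes 10 fell, 2 rose and 5 did not pass, with a median log2 fold change of -0.26 against 0.04 over all features. The share called in either direction, 70.6%, was near the 67% of all features, of which 35.3% were higher and 31.6% lower. Cbl, the ubiquitin ligase that marks activated Syk and its partners for removal, fell from 145 ± 1.25 to 67.1 ± 0.693 TPM, and the phosphatase gene Ptpn12 had a log2 fold change of -1.32. Inpp5d, which encodes SHIP1, the phosphatase recruited by Fcgr2b, stood at 194 and 193 TPM in PBS and at 209 and 204 TPM in CS1. Its log2 fold change was 0.09 (limma adjusted p = 0.0167), and the call was lost in 5 of 12 alternatives (trimmed mean scaling, no variance trend, and without PBS replicate 1, PBS replicate 2 or CS1 replicate 1), over which the adjusted p reached 0.0967. Ptpn22, a phosphatase acting on Src-family kinases, rose by 0.16. Ptpn6, which encodes SHP-1 and was named after its values were seen, did not pass, at 675 ± 2.31 and 663 ± 20.9 TPM.

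**Figure D4:**
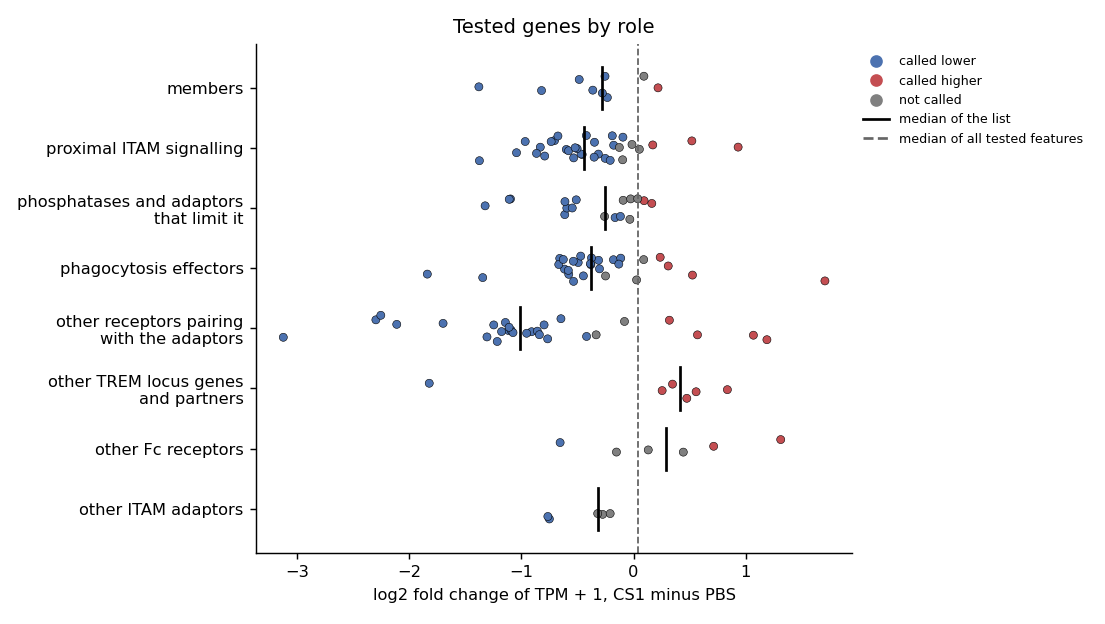
Log2 fold changes of the tested genes in each list (points, spread vertically only to separate them), coloured by call, with the list's median (black) and the median of all tested features (dashed, 0.04). The other receptors that pair with the adaptors have the lowest median, -1.01.

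Other receptors known to signal with these adaptors, or through a related motif of their own, were also mostly lower. Of the 40 genes in that list 36 were found and 28 tested. Of these 22 fell and 4 rose (92.9% called, against 67% of all features), with a median log2 fold change of -1.01. The CD300 family receptors Cd300ld and Cd300c2 fell from 253 ± 0.0424 and 176 ± 1.12 TPM to 50.8 ± 0.0141 and 19.4 ± 1.63 TPM. Members of the CD300, SIRP-beta, PILR-beta and PIR-A families have similar sequences, so the value of each single gene is uncertain. Itgam and Itgb2, the chains of the complement receptor CR3, were named after their values were seen and had log2 fold changes of -0.95 and -0.91. Clec7a, which encodes the beta-glucan receptor Dectin-1, was named likewise and fell from 170 ± 0.827 to 99.5 ± 0.0495 TPM. Il3ra, the interleukin-3 receptor alpha chain, rose from 92.6 ± 1.81 to 116 ± 1.63 TPM, and Siglech, a receptor of plasmacytoid dendritic cells that uses Tyrobp, from 0.80 ± 0.0141 to 2.79 ± 0.467 TPM. Siglech reached the filter's minimum of 1 TPM in the CS1 libraries only, so it could be tested only as a rise. The dendritic cell markers, among which Siglech counts, summed to 315 and 325 TPM in PBS and to 521 and 517 TPM in CS1. Most of that sum was Flt3, which progenitors also express. Of the 8 tested dendritic cell markers 6 were called higher, Flt3 and Siglech among them, and 1 lower. The part of dendritic cells in these rises was not tested.

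The remaining Fc receptors, outside the Fc gamma group, were mixed. Of 14 listed genes only 6 could be tested. Of these 2 rose, 1 fell and 3 did not pass (50% called, against 67% of all features), with a median log2 fold change of 0.29. Fcgrt, the neonatal Fc receptor that recycles IgG inside cells, stood at 54.4 and 52.2 TPM in PBS and at 86.9 and 89.2 TPM in CS1, a log2 fold change of 0.71 (limma adjusted p = 2.88e-05). Fcrla, an intracellular Fc receptor-like gene of B cells, rose from 1.35 and 0.85 TPM in PBS to 3.72 and 4.68 TPM in CS1, and Fcmr, the IgM receptor, fell from 3.33 ± 0.467 to 1.75 ± 0.361 TPM, a call that was lost without PBS replicate 2 or CS1 replicate 1 (adjusted p up to 0.0644). B cell markers summed to 70.4 and 67.9 TPM in PBS and to 45.5 and 43.6 TPM in CS1.

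Other genes of the TREM family and its partners were mostly higher. Of the 11 genes in that list 8 were found and 6 tested. Of these 5 rose, Treml1 among them, and 1 fell (100% called, against 67% of all features), with a median log2 fold change of 0.41. Treml4, which lies between Trem3 and Treml2, fell from 47.9 ± 3.30 to 12.8 ± 0.233 TPM (log2 fold change -1.82, limma adjusted p = 8.25e-06), a deeper fall than that of any of the 10 genes. Trem2, the lipid-sensing receptor of macrophages and a partner of Tyrobp, rose from 28.0 ± 0.714 to 41.6 ± 0.255 TPM (log2 fold change 0.56, limma adjusted p = 0.000129). Trem1 and Trem2 thus changed in opposite directions. Treml1, a platelet gene that rose from 0.42 to 1.51 TPM, was named after its values were seen and lost its call under quantile normalization (adjusted p = 0.0740). It reached the filter's minimum of 1 TPM in the CS1 libraries only, so it could be tested only as a rise. Cd177, a neutrophil surface protein, rose from 227 ± 3.27 to 316 ± 1.27 TPM, and Pglyrp1, a granule protein reported as a ligand of TREM1 and also named after its value was seen, from 479 ± 13.6 to 572 ± 5.65 TPM. The mature neutrophil markers, of which 5 rose and 3 fell, are given above, and their part was not tested.

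Adaptors with ITAMs that serve lymphocyte receptors were scarce. Of 5 tested genes 2 fell and 3 did not pass (40% called, against 67% of all features). Cd79b, of the B cell receptor, went from 33.2 ± 0.601 to 19.4 ± 1.68 TPM and Cd3e, of the T cell receptor, from 3.11 ± 0.629 to 1.48 ± 0.863 TPM, and both genes are also among the lymphocyte markers. The call of Cd3e was lost in 7 of 11 alternatives, among them those without PBS replicate 1, PBS replicate 2 or CS1 replicate 1 (adjusted p up to 0.182).

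Genes that carry out uptake and killing after Fc gamma receptor engagement were mostly lower. Of 28 tested genes 21 fell and 4 rose (89.3% called, against 67% of all features), with a median log2 fold change of -0.38. Arpc1b, a subunit of the ARP2/3 complex that branches actin, fell from 1176 ± 3.44 to 745 ± 9.10 TPM, and Cdc42, the GTPase that drives membrane protrusion, from 787 ± 7.83 to 513 ± 0.389 TPM. Among the NADPH oxidase genes, which make the oxidative burst, Cybb, the catalytic subunit, fell from 811 ± 24.0 to 510.3 ± 10.5 TPM and was named after its value was seen. The cytosolic subunit gene Ncf1 moved the other way, from 320.3 ± 3.39 to 397 ± 7.76 TPM. Mertk, a receptor kinase for uptake of dead cells and among the 4 that rose, went from 0.405 ± 0.0636 to 3.60 ± 0.566 TPM. It reached the filter's minimum of 1 TPM in the CS1 libraries only, so it could be tested only as a rise.

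Most of the 10 genes lie in 3 clusters of the mouse genome (GRCm38, positions from GENCODE M21). On chromosome 1 Fcgr2b (170958617 to 170976547, minus strand), Fcgr4 (171018920 to 171029761, plus strand) and Fcgr3 (171051174 to 171064935, minus strand) span 106 kb, and Fcer1g (171229572 to 171234365, minus strand) ends the stretch of 276 kb. All 4 fell. The genes between Fcgr3 and Fcer1g did not share that direction. Cfap126, Sdhc, Tomm40l and Apoa2 rose, with log2 fold changes of 0.89, 0.17, 0.30 and 0.92, and Pcp4l1 fell by 0.46. Apoa2 reached the filter's minimum of 1 TPM in the CS1 libraries only, so it could be tested only as a rise. The call of Apoa2 was lost in 7 of 9 alternatives (adjusted p up to 0.185), among them those without PBS replicate 1 or PBS replicate 2. That of Sdhc was lost with the variance trend off and without PBS replicate 2 or CS1 replicate 1 (up to 0.0557), and that of Pcp4l1 with no filter and without PBS replicate 1 or CS1 replicate 2 (up to 0.0971). Beyond Fcgr2b, Fcrla rose by 1.31.

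On chromosome 17 Trem1 (48232768 to 48246924), Trem3 (48247777 to 48258841) and Treml2 (48299498 to 48312533) lie in that order on the plus strand within 80 kb. Treml4, between the last 2, fell by 1.82, while Treml2 did not pass. The outer neighbours A530064D06Rik and B430306N03Rik fell by 0.99 and 0.61. Neighbours of the TREM cluster were thus lower where those of the Fc gamma receptor cluster were mostly higher.

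On chromosome 7 Tyrobp (30413760 to 30417585, plus strand) and Hcst (30417712 to 30419854, minus strand) face each other with 126 bases between their 3′ ends, and they changed in opposite directions, by -0.28 and 0.22. No feature of the table shares an exon with either. Their outer neighbours were Sdhaf1, which rose by 0.46, and Nfkbid, which did not pass (log2 fold change 0.05). Fcgr1 lies apart on chromosome 3 (96282909 to 96293969, minus strand), between Hist2h2bb, one of a family of near-identical histone genes whose single values are uncertain, which rose by 0.80, and Txnip, which fell by 0.42. Over all 4 places 7 neighbours, Apoa2 among them, rose and 5 fell.

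**Figure D5:**
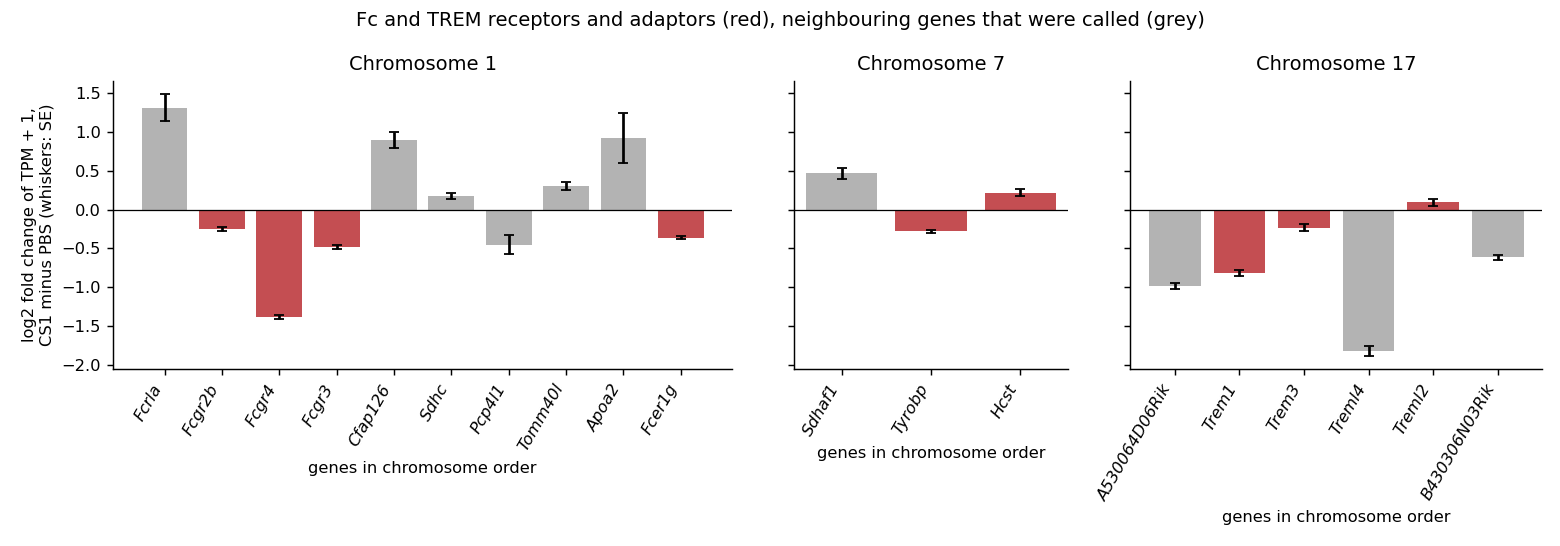
Log2 fold changes (bars, with SE as whiskers) of the tested receptors and adaptors (red) and of those neighbouring protein-coding genes that were called (grey), in chromosome order and not to distance. On chromosome 1 the red bars are all negative among mostly positive neighbours; on chromosome 7 Tyrobp and Hcst have opposite signs.

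Promoters were compared for the Fc gamma receptors because all 4 were lower in both CS1 libraries and by unequal amounts. Spi1, named after its value was seen, encodes PU.1, a myeloid transcription factor that binds purine-rich DNA. It fell from 849 to 707 TPM (log2 fold change -0.26, limma adjusted p = 0.000239). Of all tested features 25.1% had a log2 fold change as low or lower. The part of Spi1 in the falls of the receptors was not tested. The word GAGGAAG was searched on both strands of RefSeq promoters (GRCm38.p6, 250 bases before to 50 after each start), which were found for 7 of the 10 genes. It occurred in Fcgr1, Fcgr3 and Fcgr4, and not in Fcgr2b, Fcer1g, Hcst or Trem1, and 13.6% of all 32851 promoters hold it. Stretches of 150 bases, 100 before to 50 after the start, are printed 5′ to 3′ on the gene's strand, with the word in capitals, where it reads as its reverse complement CTTCCTC. They are Fcgr1 at chr3:96293920-96294069, Fcgr3 at chr1:171059354-171059503, Fcgr4 at chr1:171018826-171018975 and, without the word, Fcgr2b at chr1:170976022-170976171.
Fcgr1 promoter: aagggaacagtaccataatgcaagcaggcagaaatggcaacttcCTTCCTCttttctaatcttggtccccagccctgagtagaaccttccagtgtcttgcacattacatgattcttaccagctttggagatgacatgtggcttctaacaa
Fcgr3 promoter: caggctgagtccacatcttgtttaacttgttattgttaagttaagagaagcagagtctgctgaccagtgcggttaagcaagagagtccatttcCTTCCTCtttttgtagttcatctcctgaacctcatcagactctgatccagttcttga
Fcgr4 promoter: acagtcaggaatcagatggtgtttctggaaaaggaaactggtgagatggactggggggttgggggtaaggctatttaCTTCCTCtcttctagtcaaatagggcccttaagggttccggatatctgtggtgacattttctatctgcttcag
Fcgr2b promoter: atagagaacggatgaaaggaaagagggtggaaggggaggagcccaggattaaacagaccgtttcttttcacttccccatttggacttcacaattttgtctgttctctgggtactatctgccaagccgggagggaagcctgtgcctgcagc

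The word starts 56 bases before the start in Fcgr1, 7 before in Fcgr3 and 23 before in Fcgr4. RefSeq also gives Fcgr3 a second start a few bases further along, and the same word starts 16 bases before that one. The RefSeq starts of Fcgr3 and Fcgr2b lie inside the gene spans given above from GENCODE. A pair of other words was searched in the same way. TTCNNNGAA, the form bound by STAT factors, occurred in Fcgr1 and Trem1 and is in 8.3% of all promoters; TTGCNNAA, a form bound by C/EBP factors, occurred in Fcgr3 and is in 10.8%. Only the words given were counted, so other purine-rich stretches, such as those in the Fcgr2b window, were not. These matches describe the letters of the windows and show no binding.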

How the data were processed

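RNA of 4 libraries (2 PBS, 2 CS1) was compared. STAR, RSEM and mm10 are named, without versions or roles, in the submitters' processing notes. The deposited values were taken as TPM that the authors had computed; neither header nor labels give the unit, which was inferred from decimals, from column sums of 977973 to 986345 and from the mention of RSEM. No value is under 0.01, the entry that seems to take the place of 0. TPM keeps no read depth, so depth is unknown and no counting interval or test of sampling noise between replicates could be given. From 11459 to 11813 features per library reached 1 TPM. TPM is a share of a total, so a fall in abundant transcripts raises other values.

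The filter kept the 11866 features that reached 1 TPM in 2 or more libraries. They were tested as log2(TPM + 1) with limma 3.58.1 in R 4.3.3 (two-sided, variance trend on, Benjamini-Hochberg adjustment over those features), and an adjusted p under 0.05 was a call. This test gave all adjusted p-values. The script was also tested on simulated data. Groups follow the sample titles. The 10 genes, the 7 pathway lists and the 12 marker lists were chosen with earlier results of these data known, so list counts and medians are descriptions without a test. Named genes are the 10, the 2 called genes of smallest p per direction in each list, the neighbouring genes (not all are reported here), and the 2 most abundant markers per marker list; others are said to be named after their values were seen, or are markers that define a cell type.

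The alternatives were other pseudocounts, filters and scalings (the trimmed mean of M values among them), no variance trend, a replicate block and leaving out each library. Same-numbered libraries did not deviate together (correlation 0.0219 over the tested features), so the replicate numbers were not taken as pairs. Positions and coding sequences are from GENCODE M21 and promoters from RefSeq. The sources used here do not give whether counting used the strand.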

Additional observations from a re-analysis of the deposited data

How the results depend on the processing

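None of the 12 alternatives reversed the direction of any of the 9 tested genes. Fcgr2b, Fcgr3, Fcgr4, Fcer1g, Tyrobp, Trem1 and Hcst kept their calls in all 12, with log2 fold changes of -1.41 to -1.28 for Fcgr4, -0.85 to -0.71 for Trem1 and 0.16 to 0.29 for Hcst, whose adjusted p reached 0.0481. Under quantile normalization 2 genes were called higher, because Treml2 passed, and 6 lower, because Trem3 did not; the cause was not tested. With the replicate block 7750 features were called over the whole table (7949 without it), and 1 of the genes was called higher and 7 lower, as before. Trimmed mean scaling moved the split of all calls to 3919 higher and 4006 lower. Counts in the pathway lists moved by more than 1.5 times in 17 of 154 cases, all of them counts of 4 or fewer in the reported fit. With 2 libraries per group and unknown depth, small differences such as that of Treml2 stay uncertain, and a missed call does not show equal levels.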
